A study of Macaca fascicularis with 44 samples.

Results

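The 8 gene identifiers described here were chosen by their read levels, which were higher in the anterior than in the posterior dentate gyrus of saline-treated female cynomolgus macaques (Macaca fascicularis). They are ENSMFAG00000004027, ENSMFAG00000030097, ENSMFAG00000038412, ENSMFAG00000025723, ENSMFAG00000030468, ENSMFAG00000043185, ENSMFAG00000002477 and ENSMFAG00000039113, 8 of 17293 identifiers in the deposited tables. The files carry no gene names, and the RefSeq gene table matched 0 of their identifiers, so no name, position or role is given for any of them. RNA-seq libraries came from the anterior dentate gyrus (aDG), posterior dentate gyrus (pDG), basolateral amygdala (BLA) and anterior cingulate cortex (ACC). Animals had received saline or betamethasone, a man-made steroid of the cortisol type that acts on glucocorticoid receptors. Age, dose and time of treatment were not among the labels used. Each saline group held 6 libraries, while betamethasone was represented by 5 libraries of aDG, 5 of pDG, 4 of BLA and 6 of ACC. Whether the libraries of a group came from separate animals is not stated. The p-values therefore rest on library-to-library spread, which could be technical.

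The dentate gyrus is the entry stage of the hippocampal circuit and is made up mainly of granule neurons. In primates the anterior hippocampus corresponds to the ventral pole of the rodent hippocampus and is tied to stress and emotion, while the posterior part corresponds to the dorsal pole and is tied to spatial memory. The amygdala lies directly in front of the anterior hippocampus, so a dissection of the anterior part has amygdala tissue as a neighbour. In pieces of tissue, fewer cells of a type and less RNA per cell cannot be told apart.

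Higher in aDG than pDG did not mean highest in aDG. In the betamethasone libraries, which the choice did not use, all 8 mean levels were again higher in aDG than in pDG, and 5 of the 8 passed the test of that difference, as did 1.44% of all identifiers tested. For 7 of the 8, however, the BLA mean lay above the aDG mean, and ENSMFAG00000025723 alone had its highest regional mean in aDG. In 7 of the 8 every pDG betamethasone library lay below every BLA library, as in 9.8% of identifiers tested, and below every ACC library, as in 17.4%. Among these 7, ENSMFAG00000038412 held 4 to 15 reads per pDG library and enters as a description only. The choice favoured identifiers low in pDG, and its aDG libraries include replicate 5, which lay among those of BLA (below). The shares set beside BLA and ACC are therefore a description too. The levels below are CPM, read counts scaled to the same total of gene reads in each library. They are not divided by gene length and are therefore compared between libraries for 1 identifier at a time.

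**Figure D1:**
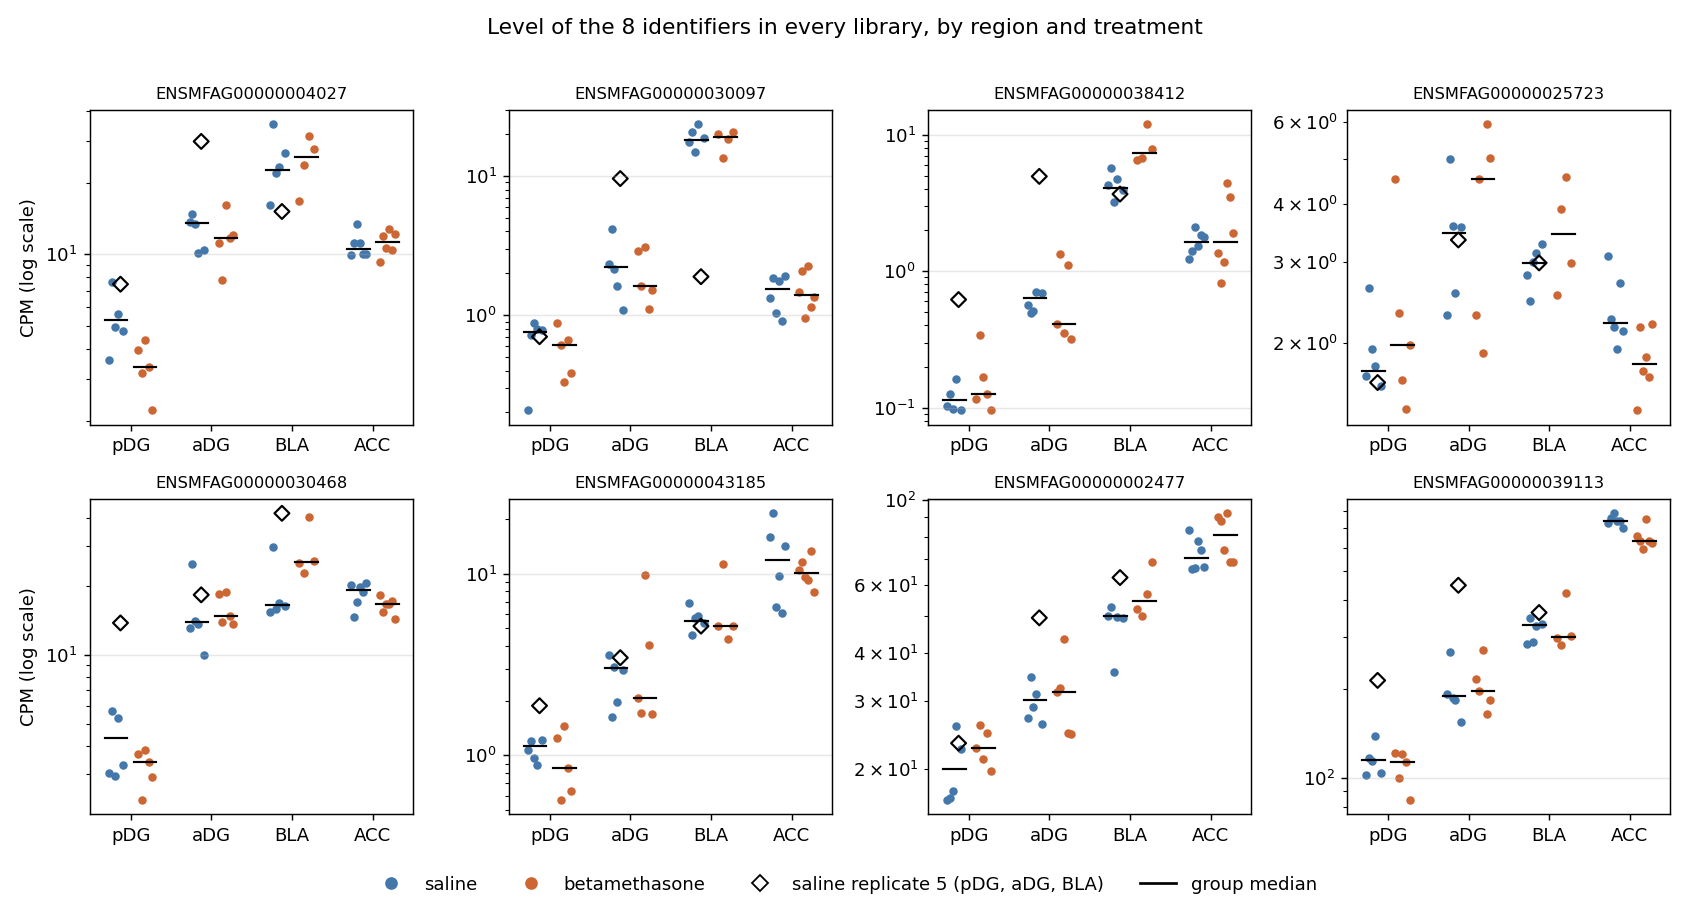
CPM of each identifier (log axis) in every library of pDG, aDG, BLA and ACC; blue points are saline, orange points betamethasone, bars group medians, and diamonds saline replicate 5 of pDG, aDG and BLA. In 7 panels all pDG points lie below all BLA and ACC points, and the aDG diamond reaches 29.8 CPM in the panel of ENSMFAG00000004027.

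Libraries held 28449737 to 83322595 gene reads (median 44944904). A scale from pDG to BLA was built from 194 other identifiers whose mean log2 level differed by at least 2 between the betamethasone libraries of these regions, with their means at 0 and 1. On it the 5 aDG betamethasone libraries lay between 0.1004 and 0.223 and 5 aDG saline libraries between 0.0903 and 0.256, but the sixth of these, labelled replicate 5, was placed at 0.975, within the BLA saline range of 0.716 to 0.986. BLA saline replicate 5 held the low end of that range at 0.716, while the other BLA saline libraries lay at 0.909 to 0.986. The ACC saline libraries lay at 0.680 to 0.721 on this scale, so BLA saline replicate 5 fell inside their range. The scale was built from pDG and BLA alone, so a shared place on it does not measure likeness to ACC. pDG saline replicate 5 held the highest place in its group (0.0935, others 0.0237 to 0.0779). The aDG library is called by its label below, although its place goes against that label, and whether the label or the dissected tissue differs cannot be told apart from the files. Where one of these 3 libraries moved a saline value most, the value without it is given too.

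**Figure D2:**
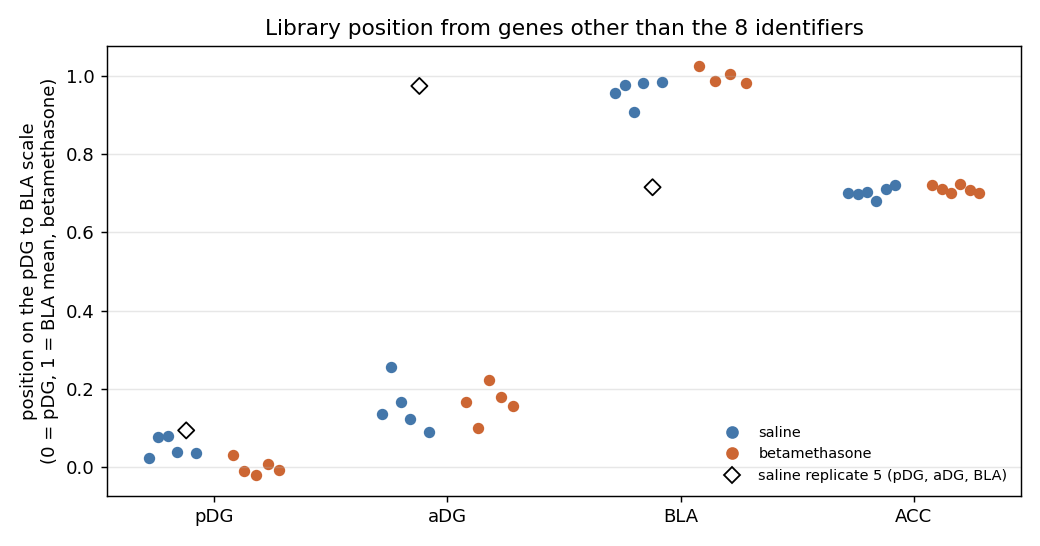
Place of each library on a scale from pDG (0) to BLA (1), computed from 194 identifiers that exclude the 8; the pDG and BLA betamethasone groups sit at 0 and 1 by construction. The aDG library drawn as a diamond, saline replicate 5, lies at 0.975, among the BLA libraries.

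The identifiers are described in 3 sets by the order of their regional levels, an order read from these data. The first set, ENSMFAG00000004027, ENSMFAG00000030097, ENSMFAG00000038412 and ENSMFAG00000030468, had its highest means in BLA. For ENSMFAG00000030468 in saline the lead of BLA was small without BLA replicate 5 (18.8 CPM against 18.6 in ACC). ENSMFAG00000004027 held 11.1, 7.79, 16.2, 11.7 and 12.1 CPM in the aDG betamethasone libraries and 3.96, 3.18, 4.37, 3.37 and 2.21 CPM in those of pDG. The groups did not overlap, and the lowest aDG library lay above the highest pDG library. In BLA the 4 betamethasone libraries held 16.7, 23.7, 31.5 and 27.7 CPM, all above aDG, while the 6 ACC libraries (9.32 to 12.8 CPM, median 11.3) lay inside the aDG range. With saline, aDG held 10.2 to 14.7 CPM (median 13.4) without replicate 5, which held 29.8 CPM. The pDG saline libraries held 3.60 to 7.62 CPM (median 5.29), those of BLA 15.1 to 35.2 (median 22.5, with replicate 5 lowest) and those of ACC 9.91 to 13.4 (median 10.6). Its regional order was thus pDG lowest, aDG and ACC side by side, and BLA highest.

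ENSMFAG00000030097 set BLA apart from every other region. The BLA betamethasone libraries held 20.1, 13.5, 18.3 and 20.7 CPM, against 2.88, 1.62, 3.09, 1.11 and 1.51 in aDG. In pDG they held 0.874, 0.614, 0.333, 0.661 and 0.385 CPM, and in ACC 0.952 to 2.28 (median 1.41). The aDG libraries lay above all of pDG, below all of BLA and across the ACC range. With saline, 5 BLA libraries held 14.9 to 23.7 CPM, and replicate 5, which also stood apart on the scale above, held 1.89. In aDG saline replicate 5 held 9.60 CPM and the others 1.09 to 4.13 (median 2.14). The pDG saline libraries held 0.207 to 0.874 CPM (median 0.754) and the ACC saline libraries 0.901 to 1.91 (median 1.56), so both stayed far below the 5 higher BLA libraries.

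ENSMFAG00000038412 was scarce in the dentate gyrus. Its pDG betamethasone libraries held 0.117, 0.341, 0.166, 0.126 and 0.0962 CPM, which came from 4 to 15 reads each. The aDG libraries held 0.408, 1.34, 0.350, 1.11 and 0.317 CPM from 12 to 58 reads. The lowest aDG library lay just below the highest pDG library, so these groups overlapped. In BLA the values were 6.52, 6.80, 12.01 and 7.88 CPM, and in ACC 0.826 to 4.42 (median 1.63), so BLA stood above all other regions. With saline, pDG replicate 5 held 0.619 CPM and the other 5 libraries 0.0952 to 0.163. In aDG, replicate 5 held 4.96 CPM and the others 0.493 to 0.701, and BLA held 3.22 to 5.73 (median 4.10). The aDG replicate 5 value thus lay inside the BLA range and above all others of its own group. This identifier passed the filter on low counts through the regions where it is high, and it was dropped from the treatment fit of pDG alone. Its differences from pDG are therefore a description, also where it enters a count.

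ENSMFAG00000030468 separated the dentate gyrus parts widely. In aDG the betamethasone libraries held 18.5, 13.98, 18.9, 14.9 and 13.6 CPM, and in pDG 3.70, 2.32, 3.83, 3.40 and 2.93. No aDG library came near the pDG range, and the ACC libraries (14.4 to 18.3 CPM, median 16.7) fell inside the aDG range. BLA held 25.4, 22.8, 40.2 and 25.7 CPM, again above aDG. With saline, pDG replicate 5 held 13.8 CPM against 2.95 to 5.68 in the other 5 libraries, and so overlapped aDG (10.02 to 24.99 CPM, median 13.9). BLA replicate 5 held 41.8 CPM, the highest of its group, and the other BLA saline libraries held 15.4 to 29.7. The ACC saline libraries held 14.7 to 20.8 CPM. The saline mean was 22.7 CPM in BLA, 18.8 without replicate 5, and 18.6 in ACC, while the BLA median (16.6) lay below that of ACC (19.4). BLA and ACC thus could not be ordered for this identifier in saline.

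The second set, ENSMFAG00000043185, ENSMFAG00000002477 and ENSMFAG00000039113, rose in mean level from pDG through aDG and BLA to ACC under both treatments. ENSMFAG00000039113 held 216.1, 195.8, 270.4, 164.2 and 182.7 CPM in the aDG betamethasone libraries and 121.0, 100.1, 120.7, 113.3 and 84.3 in those of pDG. In BLA it held 297.1, 281.7, 422.0 and 301.6 CPM and in ACC 593.6 to 749.4 (median 630.6). No 2 regions overlapped, so its levels were graded in 4 separate steps. With saline, aDG replicate 5 held 447.3 CPM and the others 154.7 to 266.9, pDG replicate 5 held 213.4 and the others 102.2 to 138.1, and BLA held 284.2 to 361.8. ACC stayed highest at 698.0 to 783.0 CPM.

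ENSMFAG00000002477 held 31.7, 32.3, 43.4, 24.7 and 24.6 CPM in the aDG betamethasone libraries and 22.6, 25.9, 21.1, 24.8 and 19.7 in those of pDG. Replicates 4 and 5 of aDG lay within the pDG range, so the dentate gyrus parts overlapped. BLA held 51.96, 49.9, 57.0 and 68.8 CPM and ACC 68.7 to 92.2 (median 80.95), both above the whole dentate gyrus. With saline, aDG held 26.1 to 34.6 CPM without replicate 5, which held 49.3, and pDG held 16.6 to 25.8. Here the saline groups of aDG and pDG did not overlap, with or without replicate 5. BLA saline libraries held 35.7 to 62.8 CPM and ACC saline libraries 65.9 to 83.5.

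ENSMFAG00000043185 held 2.08, 1.71, 9.77, 4.05 and 1.69 CPM in the aDG betamethasone libraries, so replicate 3 alone was several times the median. In pDG the libraries held 1.25, 0.569, 1.44, 0.849 and 0.635 CPM, all below aDG. BLA held 5.14, 11.3, 4.39 and 5.15 CPM and ACC 7.96 to 13.3 (median 10.1). With saline it held 1.63 to 3.56 CPM in aDG, 0.882 to 1.87 in pDG (to 1.21 without replicate 5), 4.57 to 6.85 in BLA and 6.11 to 21.5 in ACC. Every dentate gyrus saline library thus lay below every BLA and ACC saline library. This identifier also had many reads on the opposite strand, 26.4% of its reads over all libraries, where the median of 13447 identifiers with a mean of at least 1 CPM was 0.255%. The opposite-strand share ran from 59.2% in pDG and 38.7% in aDG to 24.99% in BLA and 16.2% in ACC. With both strands counted together the difference of aDG from pDG under betamethasone was 1.19 on the log2 scale, against 1.98 from the stranded count, and with saline 0.71 against 1.18. For the other 7 the opposite strand took at most 2.63% over all libraries, and in a single region at most 5.56% (ENSMFAG00000038412 in pDG).

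ENSMFAG00000025723 formed the third set alone, with its highest mean in aDG. The aDG betamethasone libraries held 2.30, 4.53, 1.91, 5.94 and 5.03 CPM, and the pDG libraries 4.51, 2.32, 1.66, 1.45 and 1.98. The groups overlapped: pDG replicates 1 and 2 exceeded aDG replicates 1 and 3, and pDG replicate 5 exceeded aDG replicate 3. BLA held 2.54, 3.90, 4.57 and 2.98 CPM, inside the aDG range, and ACC held 1.43 to 2.20 (median 1.81). With saline, aDG held 2.30 to 4.99 CPM (median 3.45), BLA 2.47 to 3.27 (median 2.99), ACC 1.94 to 3.08 (median 2.21) and pDG 1.62 to 2.64 (median 1.75). All 4 saline ranges shared values with the neighbouring one in that order, and aDG replicate 5 (3.34 CPM) lay in the middle of its group.

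The first test asked whether the dentate gyrus difference recurs in libraries that the choice did not use. In the fit of the 20 betamethasone libraries 5 of the 8 were higher in aDG than in pDG and 0 were lower, where 1.44% of 14962 identifiers tested were called higher and 1.24% lower (edgeR quasi-likelihood test, adjusted p under 0.05). The median log2 difference of the 8 was 1.80, against 0.0044 over all identifiers tested. For ENSMFAG00000030468 the aDG mean was 15.98 ± 2.56 CPM and the pDG mean 3.23 ± 0.617 (SD, n = 5 libraries each), and the log2 difference was 2.27 ± 0.17 (SE; edgeR adjusted p = 1.58e-07). ENSMFAG00000004027 averaged 11.8 ± 2.99 against 3.42 ± 0.822 CPM, with a difference of 1.75 ± 0.20 (log2, SE; edgeR adjusted p = 9.28e-05). These changes of 4.84-fold and 3.37-fold were larger than the spread between the libraries of either group. ENSMFAG00000039113 was 1.87-fold higher (log2 difference 0.90 ± 0.14, SE; edgeR adjusted p = 0.00138), and ENSMFAG00000030097 3.60-fold (1.85 ± 0.33, SE; edgeR adjusted p = 0.00382). ENSMFAG00000043185 was 3.95-fold higher (1.98 ± 0.44, SE; edgeR adjusted p = 0.0175). Its difference was 1.28 without aDG replicate 3 (edgeR adjusted p = 0.0328), and the call was lost without pDG replicate 2 or 4 (edgeR adjusted p = 0.0547 and 0.0549).

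The other 3 did not pass. ENSMFAG00000038412 stood 1.98 ± 0.54 higher on the log2 scale (SE; edgeR adjusted p = 0.0543). It held 4 to 15 reads per pDG library and was kept by the filter through other regions. Its difference from pDG is therefore a description. That it passed in DESeq2 and in some fits without 1 library carries no weight. ENSMFAG00000025723 stood at 0.69 ± 0.31 (SE; edgeR adjusted p = 0.273), and at 1.04 without pDG replicate 1 (edgeR adjusted p = 0.0540). ENSMFAG00000002477 stood at 0.43 ± 0.15 (SE; edgeR adjusted p = 0.128), and at 0.28 without aDG replicate 3. Judged library by library, 5 of the 8 had every aDG betamethasone value above every pDG value, against 2.09% of identifiers tested. With the spread estimated from the 10 dentate gyrus libraries alone 3 of the 8 passed, because ENSMFAG00000030097 (edgeR adjusted p = 0.0682) and ENSMFAG00000043185 (0.145) no longer did. Both also lost their calls with the title-number pairs of aDG and pDG libraries as a block (edgeR adjusted p = 0.0769 and 0.0588).

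In the saline libraries, which chose the identifiers, the differences are given without a test. In the fit of the 24 saline libraries 0 of 14879 identifiers passed between aDG and pDG in edgeR (0%), with 654 at an unadjusted p under 0.05. With the title-number pairs of aDG and pDG libraries as a block, 31 passed. The log2 difference of the 8 ranged from 0.67 to 2.64 (median 1.30), and without aDG replicate 5 from 0.50 to 1.72. That library moved ENSMFAG00000038412 most, from 2.64 ± 0.57 to 1.47 ± 0.37 (SE), followed by ENSMFAG00000030097, from 2.37 ± 0.53 to 1.72 ± 0.45. ENSMFAG00000025723 hardly moved, from 0.82 to 0.81. Without pDG replicate 5 the difference of ENSMFAG00000038412 went from 2.64 to 3.45 and that of ENSMFAG00000030468 from 1.45 to 1.93. All 8 stayed higher in aDG in each of these fits. Every aDG library lay above every pDG library for 3 of the 8, and for 7 of the 8 without pDG replicate 5. The share over all identifiers tested was 0.141%, and nothing is read from it, since these values chose the 8.

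**Figure D3:**
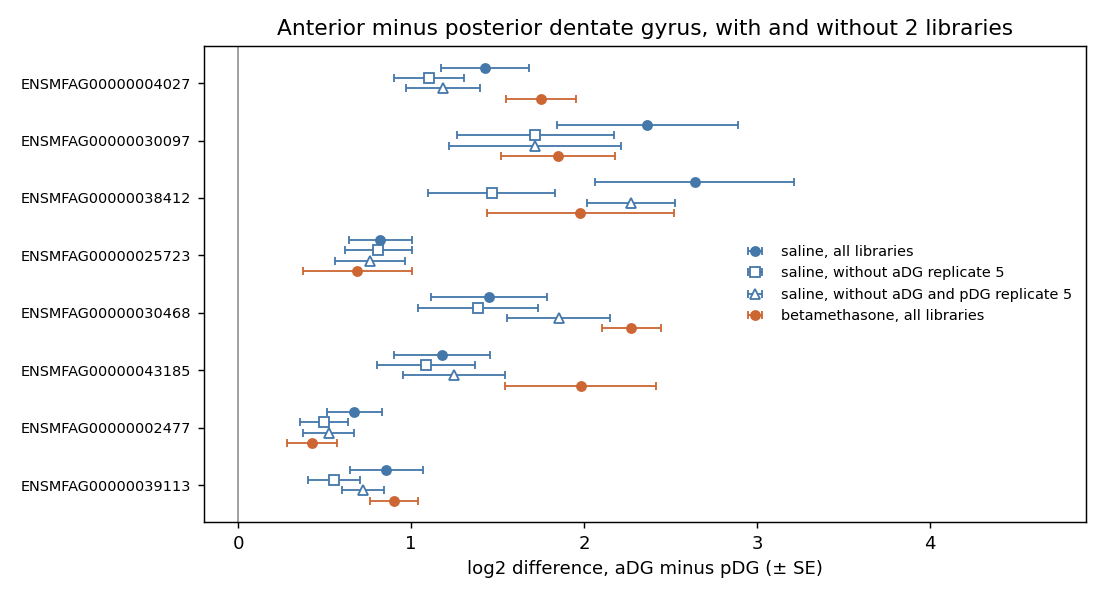
Log2 difference of aDG from pDG with its SE for each identifier, in saline with all libraries (filled blue circles), without aDG replicate 5 (squares), without aDG and pDG replicate 5 (triangles), and in betamethasone (orange). All points lie above 0, and for ENSMFAG00000038412 the saline value goes from 2.64 to 1.47 when aDG replicate 5 is left out.

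The identifiers were then set against the amygdala. The saline libraries that chose them include aDG replicate 5, placed at 0.975 on the scale from pDG to BLA. The choice could thus favour identifiers high in BLA, which was not tested. The shares over all identifiers given here are therefore a description. Under betamethasone 6 of the 8 were lower in aDG than in BLA and 0 were higher, where 11.9% of identifiers tested were called lower and 11.7% higher. The difference was widest for ENSMFAG00000038412, which averaged 0.705 ± 0.483 CPM in aDG (SD, n = 5) and 8.30 ± 2.54 in BLA (SD, n = 4), 12.3-fold higher in BLA (-3.62 ± 0.51 on the log2 scale, SE; edgeR adjusted p = 2.15e-05). ENSMFAG00000030097 was 9.05-fold higher in BLA (2.04 ± 0.885 against 18.2 ± 3.24 CPM; edgeR adjusted p = 4.01e-07). The other 4 called identifiers differed less, by 2.17-fold (ENSMFAG00000004027), 1.86-fold (ENSMFAG00000002477), 1.84-fold (ENSMFAG00000030468) and 1.63-fold (ENSMFAG00000039113), with edgeR adjusted p from 0.000173 to 0.00127. In these 6 the highest aDG value lay below the lowest BLA value, against 7.98% of identifiers tested. ENSMFAG00000043185 stood at -0.77 ± 0.43 (SE; edgeR adjusted p = 0.200) and passed without aDG replicate 3 (log2 difference -1.47, edgeR adjusted p = 0.00282). ENSMFAG00000025723 stood at 0.12 ± 0.33 (SE; edgeR adjusted p = 0.818), and its sign turned without aDG replicate 4 (-0.064) or BLA replicate 1 (-0.033).

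Against the cingulate cortex the 8 divided. Under betamethasone 4 were lower in aDG than in ACC, where 26.3% of identifiers tested were called lower, and 1 was higher, where 25.1% were. ENSMFAG00000039113 was 3.23-fold and ENSMFAG00000002477 2.63-fold higher in ACC (edgeR adjusted p = 5.17e-09 and 1.09e-07), and these 2 alone had no overlap between libraries, as 16.8% of identifiers tested did in that direction. ENSMFAG00000038412 was 3.23-fold and ENSMFAG00000043185 2.75-fold higher in ACC (edgeR adjusted p = 0.00429 and 0.00443), and their ranges overlapped. ENSMFAG00000025723 was 2.06-fold higher in aDG (log2 difference 1.04 ± 0.30, SE; edgeR adjusted p = 0.00676). For the remaining 3 no difference was detected. The log2 differences were 0.03 ± 0.19 (SE) for ENSMFAG00000004027, 0.38 ± 0.29 for ENSMFAG00000030097 and -0.08 ± 0.15 for ENSMFAG00000030468, with edgeR adjusted p from 0.286 to 0.900. The first of these turned sign without aDG replicate 3 (-0.11) or ACC replicate 1 (-0.016).

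**Figure D4:**
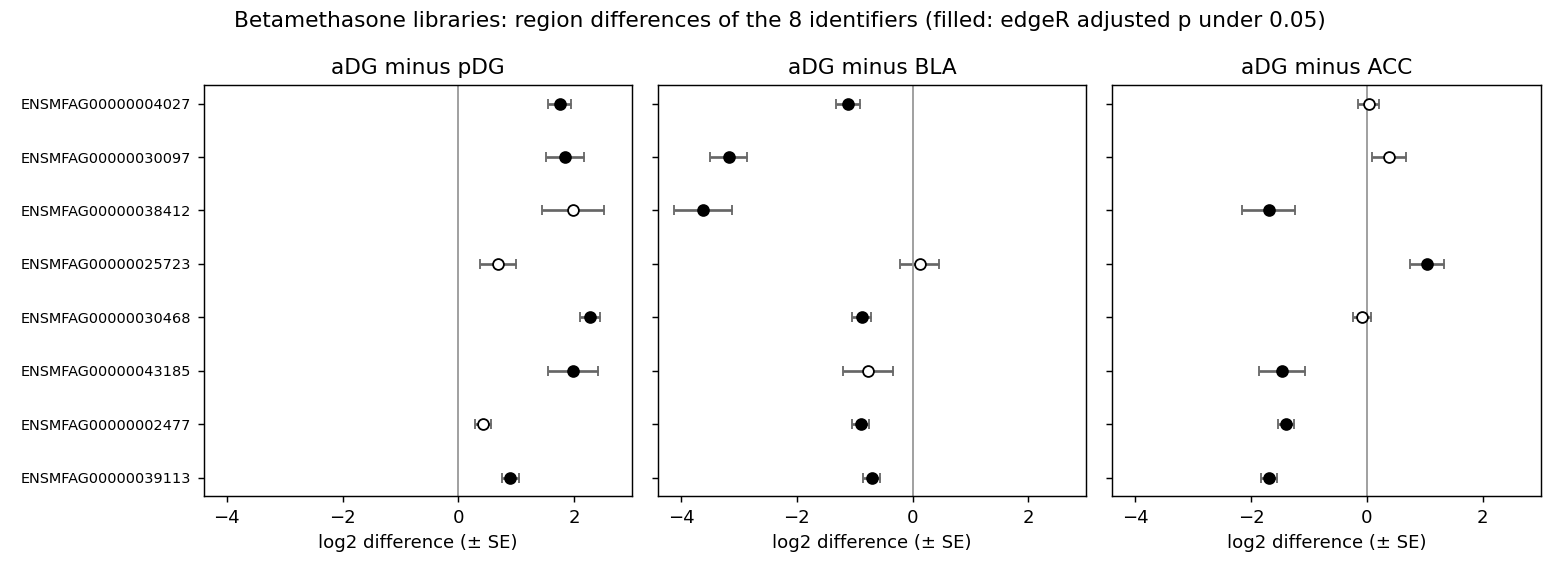
Log2 differences with SE of aDG from pDG, BLA and ACC in the betamethasone libraries; filled points passed the test. All 8 points lie above 0 against pDG, 7 lie below 0 against BLA, and against ACC ENSMFAG00000025723 (1.04) is the only filled point above 0.

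The posterior dentate gyrus was the region in which the identifiers were low. Under betamethasone 7 of the 8 were lower in pDG than in BLA, where 11.4% of identifiers tested were called lower, and 7 were lower in pDG than in ACC, where 24.2% were. These comparisons share the pDG libraries with the test of aDG against pDG, so the values are given side by side. The identifiers were also chosen as lower in pDG than in aDG with saline. A low level in pDG is thus tied to the choice, and the shares of all identifiers are a description. ENSMFAG00000030097 was 32.6-fold higher in BLA, 2.77-fold higher in ACC and 3.60-fold higher in aDG than in pDG. ENSMFAG00000038412 is among the 7 in both counts, but it was kept by the filter through BLA and ACC and held 4 to 15 reads per pDG library, so its call and fold against pDG carry no weight beyond the levels above. ENSMFAG00000030468 was 8.89-fold higher in BLA, 5.12-fold in ACC and 4.84-fold in aDG. ENSMFAG00000004027 was 7.32-fold higher in BLA and 3.29-fold in ACC, and ENSMFAG00000043185 6.74-fold and 10.9-fold. For ENSMFAG00000039113 the values were 3.04-fold in BLA and 6.03-fold in ACC, and for ENSMFAG00000002477 2.50-fold and 3.54-fold. The edgeR adjusted p of these 7 ranged from 2.05e-11 to 0.000815. ENSMFAG00000025723 did not pass against BLA (log2 difference -0.57 ± 0.33, SE; edgeR adjusted p = 0.245) or ACC (0.35 ± 0.30, SE; edgeR adjusted p = 0.362). Against BLA it passed without pDG replicate 1 (-0.92, edgeR adjusted p = 0.0348).

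Amygdala and cortex themselves were compared in both treatments. No dentate gyrus level enters these differences, but the fits estimated the spread from the libraries of all regions, dentate gyrus included. The choice could also favour identifiers high in BLA, as said above, so the shares are a description here too. Under betamethasone 5 of the 8 were higher in BLA than in ACC, where 18.6% of identifiers tested were called higher, and 2 were lower, where 22% were. With saline 3 were higher and 3 lower, where 15.3% were called in each direction. ENSMFAG00000030097 showed the widest difference, 3.56 ± 0.31 on the log2 scale under betamethasone and 3.46 ± 0.53 with saline (SE; edgeR adjusted p = 2.53e-08 and 2.63e-05). ENSMFAG00000004027 (1.15 and 1.07) and ENSMFAG00000038412 (1.93 and 1.37) were higher in BLA in both treatments. ENSMFAG00000002477 (-0.50 and -0.54) and ENSMFAG00000039113 (-0.99 and -1.20) were lower in BLA in both. Without BLA saline replicate 5 the saline difference of ENSMFAG00000030468 went from 0.28 to 0.017, and the same 6 identifiers passed. The saline call of ENSMFAG00000038412 (edgeR adjusted p = 0.0439) was lost in 9 of 12 fits that left out 1 library (highest adjusted p 0.0818). The call of ENSMFAG00000002477 under betamethasone was lost without BLA replicate 2 (edgeR adjusted p = 0.0660). ENSMFAG00000030468 and ENSMFAG00000025723 passed under betamethasone alone (0.80 ± 0.16 and 0.92 ± 0.32, SE), and ENSMFAG00000043185 with saline alone (-1.16 ± 0.27, SE). Whether treatments differ in this was not tested, and the last of them also passed under betamethasone when BLA and ACC were fitted alone (-0.66, edgeR adjusted p = 0.0398). The call of ENSMFAG00000025723 was lost without BLA replicate 3 or ACC replicate 1 (edgeR adjusted p = 0.0863 and 0.0528).

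In the regions that the choice did not use, edgeR detected no response of the 8 to betamethasone, while DESeq2 called 1 of them in BLA. In BLA 0 of the 8 passed in edgeR, where 0% of 14644 identifiers did (1493 at an unadjusted p under 0.05 and 79 called by DESeq2). ENSMFAG00000038412 held 6.52 to 12.01 CPM with betamethasone and 3.22 to 5.73 with saline, so the groups did not overlap, as in 0.792% of identifiers tested. Its log2 change was 1.03 ± 0.23 (SE; edgeR adjusted p = 0.457), and DESeq2 called it (adjusted p = 0.0151). The other 7 had BLA changes of 0.076 to 0.40 on the log2 scale, and their groups overlapped; 1.66% of identifiers tested lay wholly lower with betamethasone. Without BLA saline replicate 5 the change of ENSMFAG00000030468 was 0.66 ± 0.23 (SE; edgeR adjusted p = 0.339) and that of ENSMFAG00000030097 turned from 0.23 to -0.025. In ACC 0 of the 8 passed, where 0.33% of 14543 identifiers did, with 2329 at an unadjusted p under 0.05; the changes ran from -0.34 to 0.44, all with overlapping groups, where 0.805% of identifiers lay wholly higher and 0.763% wholly lower. DESeq2 called 574 identifiers there and 0 of the 8.

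Within the dentate gyrus the change with betamethasone is given without a test, since the saline libraries there chose the identifiers. In aDG it ran from -0.94 (ENSMFAG00000038412) to 0.48 (ENSMFAG00000043185) on the log2 scale, and without saline replicate 5 from -0.12 (ENSMFAG00000030097) to 0.57. That 1 library turned ENSMFAG00000038412 from -0.94 to 0.23, ENSMFAG00000039113 from -0.23 to 0.080 and ENSMFAG00000002477 from -0.078 to 0.095. In pDG, ENSMFAG00000030468 stood at -0.79 ± 0.37 (SE) and ENSMFAG00000004027 at -0.71 ± 0.23, and the other 5 fitted ran from -0.32 to 0.35. Without pDG saline replicate 5 they stood at -0.33 ± 0.25 and -0.63 ± 0.24, and the other 5 ran from -0.24 to 0.30. All groups overlapped between treatments in both parts for all 8.

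Libraries within a group also shared a pattern. In aDG betamethasone, replicate 3 held the highest level of 6 of the 8, the exceptions being ENSMFAG00000038412 and ENSMFAG00000025723, for which it was second lowest and lowest. It also had the highest place of its group on the scale from pDG to BLA (0.223, others 0.1004 to 0.1801). In aDG saline, replicate 5 was highest for 5 of the 8, and in pDG saline, replicate 5 for 4. How far these places account for the levels was not tested. Without aDG betamethasone replicate 3 the 5 called identifiers still passed against pDG, with edgeR adjusted p from 7.95e-07 to 0.0328.

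Over all 44 libraries, 7 of the 8 followed the mean of the others, with Pearson's r between 0.66 (ENSMFAG00000030097) and 0.89 (ENSMFAG00000030468), and ENSMFAG00000025723 gave 0.20. These libraries share regions, so r describes the regional order and carries no test. Among 13439 other identifiers with a mean of at least 1 CPM, ENSMFAG00000032858 (r = 0.89) and ENSMFAG00000032956 (r = 0.89) were closest to the mean pattern of the 8. ENSMFAG00000032858 averaged 66.7 ± 3.46 CPM in pDG, 84.6 ± 6.75 in aDG, 159.2 ± 9.63 in BLA and 133.4 ± 6.60 in ACC under betamethasone (SD, n = 5, 5, 4 and 6). It was thus lowest in pDG and highest in BLA. Of the 215 identifiers called higher in aDG than in pDG under betamethasone, 73 (33.95%) were also called higher in BLA than in pDG in saline libraries. Of all identifiers 7.77% were called higher in BLA there. Those 73 made up 6.35% of that second list, while 1.44% of all identifiers tested were on the first list. For ACC above pDG in saline the number was 97 (45.1% of the first list and 3.67% of the second), where 17.9% of all identifiers were called. No library enters both lists. The first list does hold the 5 called identifiers of the 8, which the pDG saline libraries helped choose. These overlaps are a description and carry no test.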

How the data were processed

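The deposited files hold raw read counts per gene identifier, one library per file, and the submitters' processing notes name STAR. The version, build and annotation were not given in the sources used here. Of the unstranded and the 2 stranded counts, column 4 was used, which exceeded the other strand in every library. The 139 identifiers on more than 1 of the 17452 rows were summed (0 of the 8 described). Rows naming no gene were left out of library sizes and tests; 11.0% to 31.4% of reads were unmapped, and 24.5% to 37.2% of mapped reads lay outside genes and 0.333% to 0.455% were ambiguous. Multimapping reads were listed as 0, so reads shared between near-identical genes cannot be judged. Precision was limited by the spread between libraries except where few reads are named.

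The identifiers were listed, and the tests set, with earlier results of these data known. All 8 are named throughout; 2 others are named by likeness to their mean standardised log2(CPM + 0.5). edgeR 4.0.16 in R 4.3.3 was used with TMM scaling, a filterByExpr filter (at least 10 reads, 15 in total) and the robust quasi-likelihood test. P-values were adjusted by Benjamini-Hochberg across every identifier that passed the filter, with a threshold of 0.05. Regions were compared in 1 fit of the 20 betamethasone and 1 of the 24 saline libraries, and treatment within each region. SE is the log2 difference divided by the square root of F. Alternatives were RLE scaling, DESeq2 1.42.0, no filter, unstranded counts, fits of only the compared groups, leaving out libraries, and a block by title number. The code was tested on simulated data. Title numbers of aDG and pDG libraries are 31 apart one for one. The numbers of BLA and ACC libraries run in a like order, but not at a constant step. Pairing with these regions was not checked, and their comparisons were made unpaired. All 6 saline pairs of aDG and pDG, but 3 of 5 betamethasone pairs, had deviations from their group means correlated above 0.1 (0.15 to 0.80 and -0.073 to 0.68). The numbers were therefore taken to pair the saline but not the betamethasone libraries of aDG and pDG, and the block was kept as an alternative.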

Additional observations from a re-analysis of the deposited data

Results flagged for a closer look

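In 64 groups of libraries (8 identifiers in 8 groups), 16 single values lay far from the rest of their group. The aDG and pDG saline values chose the identifiers, and the 8 share libraries and largely a pattern. The number of such values is therefore not set against a rate given by chance. The library labelled aDG saline replicate 5 held 4 of them, at 29.8 CPM for ENSMFAG00000004027, 9.60 for ENSMFAG00000030097, 4.96 for ENSMFAG00000038412 and 49.3 for ENSMFAG00000002477, each above the other aDG saline libraries. pDG saline replicate 5 held another 4, at 0.619 CPM for ENSMFAG00000038412, 13.8 for ENSMFAG00000030468, 1.87 for ENSMFAG00000043185 and 213.4 for ENSMFAG00000039113, each above its group. Betamethasone replicate 3 of BLA was high for ENSMFAG00000030468 (40.2 CPM) and ENSMFAG00000039113 (422.0 CPM), and replicate 2 of BLA for ENSMFAG00000043185 (11.3 CPM). In pDG betamethasone, replicate 2 was high for ENSMFAG00000038412 (0.341 CPM) and replicate 1 for ENSMFAG00000025723 (4.51 CPM). In pDG saline, replicate 1 was low for ENSMFAG00000030097 (0.207 CPM) and replicate 2 high for ENSMFAG00000025723 (2.64 CPM). ACC saline replicate 3 was high for ENSMFAG00000004027 (13.4 CPM).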

How the results depend on the processing

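Between aDG and pDG under betamethasone 401 identifiers passed in edgeR, 807 in DESeq2, 61 (41 higher, 20 lower) with only the compared groups fitted and 93 with the title-number pair as replicate block; without 1 library the number was 163 to 551 (206 and 223 without aDG replicate 4 or 5, and 211, 259 and 163 without pDG replicate 2, 3 or 4). Of the 8, 5 passed, 3 with only the compared groups and 3 with the replicate block, where ENSMFAG00000030097 and ENSMFAG00000043185 lost their calls (edgeR adjusted p = 0.0769 and 0.0588), and 4 to 6 without 1 library. In that pairing 3 of 5 betamethasone libraries of aDG were closest to their own number. In saline 0 identifiers passed, 31 with the replicate block and 0 to 8 without 1 or 2 libraries (1 without pDG replicate 2, 6 without pDG replicate 5, 8 without replicate 5 of both), and the median difference of the 8 ranged from 1.095 to 1.43. DESeq2 called 79 identifiers in BLA for treatment, 1 of them among the 8, and 574 in ACC, where edgeR gave 48, or 3 to 206 without 1 library (11, 23, 28, 17 and 25 without betamethasone replicate 1, 2, 4, 5 or 6, and 206 and 3 without saline replicate 1 or 2). Sign changes among the 8 came with single libraries left out and touched no called value. Against BLA, ENSMFAG00000025723 in aDG ranged from -0.064 to 0.30, and against ACC, ENSMFAG00000004027 from -0.11 to 0.15. For treatment in BLA, ENSMFAG00000030097 ranged from -0.025 to 0.36, ENSMFAG00000043185 from -0.10 to 0.40 and ENSMFAG00000039113 from -0.11 to 0.16, and in ACC, ENSMFAG00000030097 from -0.057 to 0.20. The cause was not tested in any of these. RLE scaling, no filter and unstranded counts changed no count by over 1.5 times, but unstranded counts moved the saline difference of aDG from pDG of ENSMFAG00000043185 from 1.18 to 0.71. Depth limits ENSMFAG00000038412 in pDG, where libraries held as few as 3 reads.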
